A study of Mus musculus with 24 samples.

Results

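Purkinje cells are the output neurons of the cerebellar cortex, and this account follows 9 genes with which they handle calcium, chosen by symbol among the 57126 gene identifiers of the count files: Calb1, Car8, Itpr1, Itpka, Ryr1, Atp2a3, Atp2b2, Cacna1a and Cacna1g. All 9 symbols were found, once each. They were followed in the cerebellum and hippocampus of the same 12 mice, 24 libraries in all, with 4 mice in each of 3 groups. The strain was BALB/cNctr-Npc1m1N/J for every mouse. It carries a spontaneous germ-line mutation of Npc1, the gene for the lysosomal cholesterol transporter lost in Niemann-Pick disease type C, so no transgene or Cre limits the defect to a cell type. The first group was Npc1+/+ mice given vehicle, all female and taken at postnatal day 65. The second was Npc1-/- mice given the same vehicle, a mixture of PBS and PEG400 injected into the peritoneum, 3 male and 1 female at postnatal day 63. The third was Npc1-/- mice, 2 male and 2 female at postnatal day 63, given dipyridamole, an inhibitor of phosphodiesterases and of adenosine uptake, at 30 mg/kg in that vehicle on 5 days a week from postnatal day 28. No Npc1+/+ mice received dipyridamole in the libraries used here. The study asked what dipyridamole does in the brain of these mice.

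RNA was measured with a multiplexed amplicon panel, which reads each gene through a short amplified stretch. Levels were therefore compared between samples for 1 gene, and differences in CPM between genes were not interpreted. Marker sums add CPM across genes, so the genes with the highest CPM weigh most in them. Levels are given in CPM, counts per 1000000 counts, on 1 scale that TMM, a normalization by trimmed means, set over the 24 libraries. Libraries held 1833609 to 11590081 counts with a median of 7979867, and the smallest was the cerebellum of Npc1-/- vehicle replicate 2. Npc1 itself fell from 102 ± 4.71 CPM in Npc1+/+ cerebellum to 28.9 ± 7.29 and 20.1 ± 6.53 CPM in the vehicle and dipyridamole Npc1-/- groups (SD, n = 4 each), and the hippocampal ranges of 63.6 to 98.3 CPM in Npc1+/+ and 15.5 to 23.0 CPM in Npc1-/- mice did not overlap either. The tissue labels held: the 6 cerebellar granule cell markers summed to at least 2759 CPM in every cerebellum and at most 5.78 CPM in every hippocampus. Genotype went together with age and with the ion code of the library (101 to 112 against 117 to 131), so the effects of these cannot be told apart. Sex differed between the groups and entered each main fit as a covariate. Because all Npc1+/+ mice were female, the estimate of its effect came from the Npc1-/- mice alone. The cerebellum and hippocampus of Npc1-/- dipyridamole replicate 4 carry the same ion code, 124, in the labels. The hippocampus of that mouse also stood apart in its 5 dentate granule cell markers, whose sum was 21.2 CPM there and between 180 and 246 CPM in the other hippocampi. The 7 choroid plexus markers varied widely in both tissues. Their sum ran from 80.6 to 8055 CPM over the hippocampi, with the highest in Npc1-/- vehicle replicate 2. Over the Npc1-/- vehicle cerebella it ran from 51.6 to 2850 CPM.

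As background, calcium in a Purkinje cell comes from outside through voltage-gated channels and from the endoplasmic reticulum through release channels. Receptors coupled to phospholipase C make the messenger inositol trisphosphate (IP3), which opens the IP3 receptor Itpr1. Buffers such as calbindin bind the released calcium, SERCA pumps return it to the store, and plasma membrane pumps export it. Purkinje cells carry unusually large amounts of several of these proteins, and mutations in Itpr1, Car8, Cacna1a or Cacna1g cause ataxia in people or mice. Loss of Purkinje cells is a known feature of Npc1 deficiency.

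In the cerebellum of vehicle-treated Npc1-/- mice 8 of the 9 genes were lower than in Npc1+/+ mice at an adjusted p under 0.05 (edgeR quasi-likelihood test, Benjamini-Hochberg adjustment over 12921 genes). Over all genes tested, 4.04% passed as lower and 5.91% as higher. The difference was deepest in the IP3 arm, the buffer and the stores, at 5.20% to 13.5% of the Npc1+/+ mean, intermediate in the T-type channel Cacna1g at 27.1%, and small in the pump Atp2b2 at 63.3%. Cacna1a, at 74.5%, did not pass. The median log2 fold change of the 9 genes was -3.05, against 0.0064 over all genes. In 8 of the 9 genes every Npc1-/- vehicle cerebellum lay below every Npc1+/+ cerebellum, an arrangement found for 10.1% of all genes. In whole tissue, fewer cells of a type and less RNA per cell cannot be told apart, which holds for every cerebellar result here.

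The buffer is Calb1 (ENSMUSG00000028222.3; GRCm39 chromosome 4, 15881264 to 15908064, plus strand), which codes for calbindin D28k, a fast cytosolic calcium buffer and a standard stain for Purkinje cells. Npc1+/+ cerebella held 679, 708, 639 and 640 CPM of Calb1. The Npc1-/- vehicle cerebella held 41.2, 39.5, 79.6 and 48.5 CPM, and the dipyridamole cerebella 49.4, 63.1, 45.0 and 56.7 CPM. Every Npc1-/- library thus stood far below the lowest Npc1+/+ library, and the ranges of both Npc1-/- groups overlapped. Calb1 fell by 3.44 ± 0.23 on the log2 scale (SE; adjusted p = 1.713e-08), and it ranked 9 from the lowest among the 12921 genes ordered by log2 fold change.

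The IP3 arm held 3 of the genes. Car8 (ENSMUSG00000041261.10; chromosome 4, 8143362 to 8239041, minus strand) codes for a carbonic anhydrase-like protein without enzyme activity that binds the IP3 receptor and lowers its affinity for IP3. Its level was 666, 696, 865 and 667 CPM in the Npc1+/+ cerebella, 33.0, 23.6, 57.4 and 36.5 CPM with vehicle and 44.6, 47.8, 42.7 and 32.6 CPM with dipyridamole in the Npc1-/- cerebella. No library of an Npc1-/- mouse came near the Npc1+/+ range, and only 1 gene of the 12921 tested had a lower log2 fold change than the -4.07 ± 0.26 of Car8 (adjusted p = 1.46e-08).

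Itpr1 (ENSMUSG00000030102.12; chromosome 6, 108190057 to 108528070, plus strand) codes for the IP3 receptor, the release channel itself. Npc1+/+ cerebella held 2664, 1919, 2567 and 1597 CPM of Itpr1, a wide spread for this group. Npc1-/- cerebella held 278, 216, 409 and 281 CPM with vehicle, and 240, 361, 316 and 307 CPM with dipyridamole. The ranges did not overlap, and Itpr1 fell by 2.65 ± 0.25 on the log2 scale (adjusted p = 1.028e-06).

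Itpka (ENSMUSG00000027296.8; chromosome 2, 119572818 to 119581744, plus strand) codes for a neuronal kinase that phosphorylates IP3 and so ends its action on the receptor. It was at 143, 104, 138 and 111 CPM in Npc1+/+ cerebella, at 11.4, 14.9, 11.8 and 9.62 CPM in Npc1-/- vehicle cerebella and at 12.2, 8.41, 8.01 and 8.91 CPM in Npc1-/- dipyridamole cerebella. The 8 Npc1-/- libraries thus reached at most 14.9 CPM. Itpka fell by 3.50 ± 0.24 on the log2 scale (adjusted p = 1.998e-08), so the channel, its inhibitor and the enzyme that removes its ligand were all lower together.

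**Figure D1:**
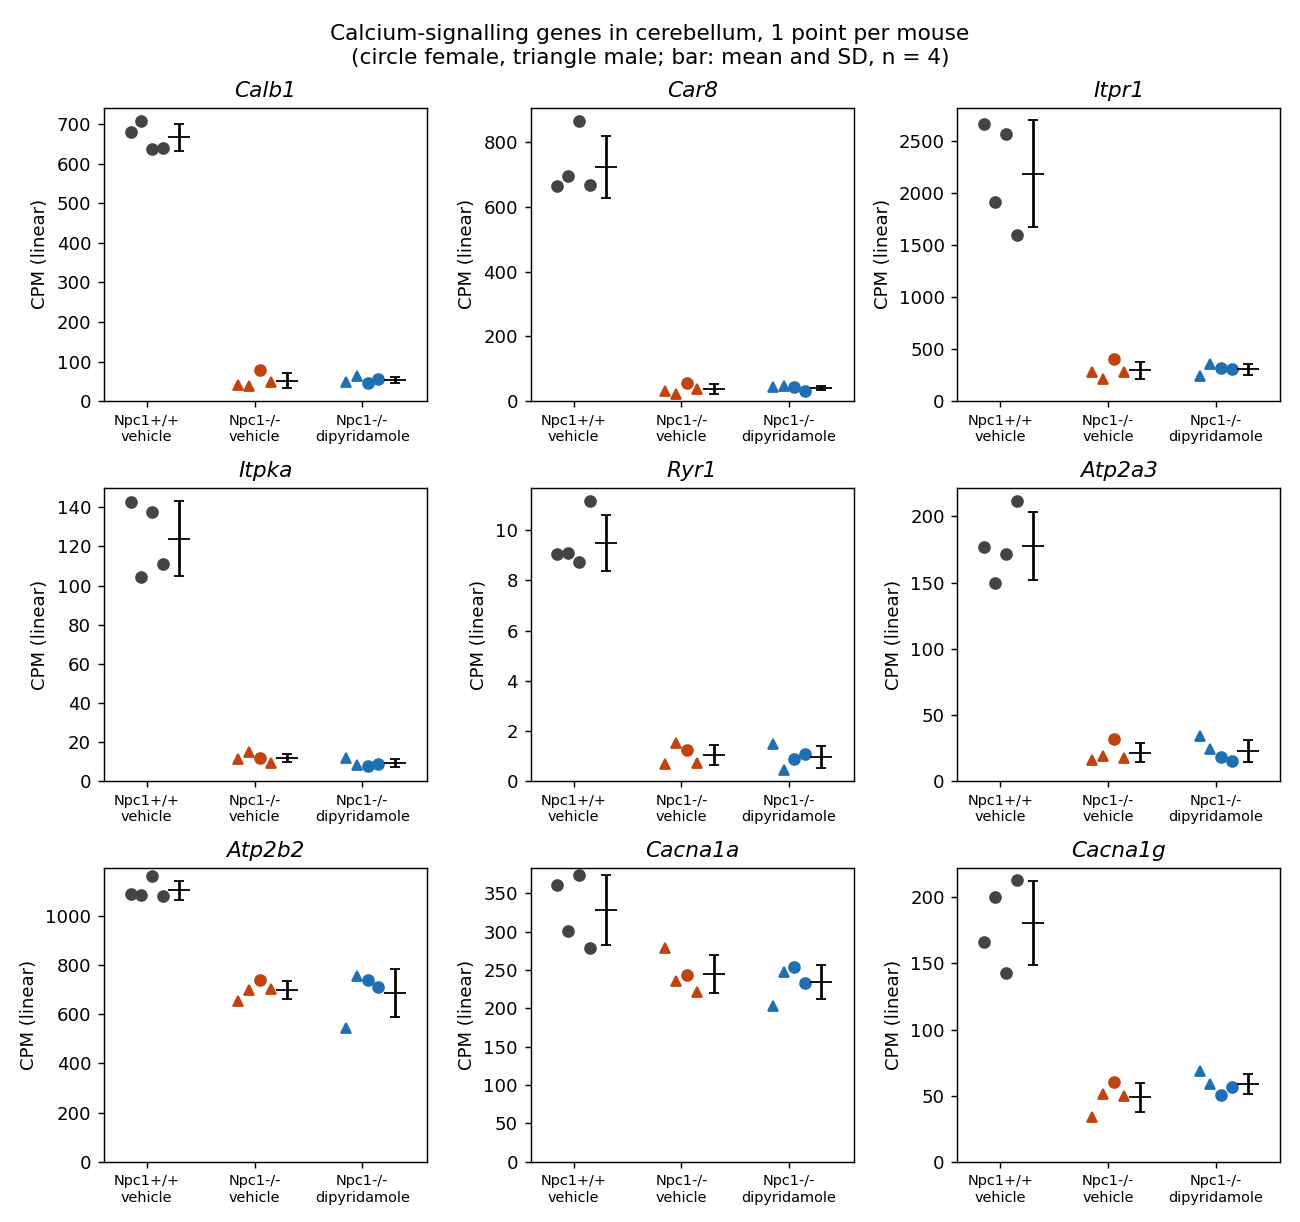
CPM on a linear axis for each of the 9 genes in the 12 cerebella, 1 panel per gene with its own axis, 1 point per mouse (circles female, triangles male) and the mean with SD of 4 mice beside each group. In 8 panels the Npc1+/+ points lie above all Npc1-/- vehicle points; in the Cacna1a panel the lowest Npc1+/+ and the highest Npc1-/- vehicle mouse are both at 279 CPM.

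The store genes were Ryr1 and Atp2a3. Ryr1 (ENSMUSG00000030592.20; chromosome 7, 28702769 to 28824604, minus strand), the ryanodine receptor best known as the calcium release channel of skeletal muscle, is also made by Purkinje cells. Its counts were the smallest of the 9 genes, 355 over the Npc1+/+ cerebella against 24 and 34 over the vehicle and dipyridamole Npc1-/- cerebella. In CPM these were 9.03, 9.09, 8.72 and 11.1 for Npc1+/+, 0.715, 1.54, 1.25 and 0.718 for Npc1-/- vehicle and 1.50, 0.467, 0.878 and 1.07 for Npc1-/- dipyridamole. Few as the reads were, the groups were far apart, at a log2 fold change of -3.14 ± 0.43 (adjusted p = 8.61e-05). The 6 striated muscle markers summed to between 3.39 and 7.69 CPM in Npc1+/+ and between 3.60 and 7.23 CPM in Npc1-/- vehicle cerebella.

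Atp2a3 (ENSMUSG00000020788.16; chromosome 11, 72851995 to 72883870, plus strand) codes for SERCA3, a pump that refills the endoplasmic reticulum. Npc1+/+ cerebella held 177, 149, 172 and 212 CPM. Npc1-/- cerebella held 16.6, 19.5, 32.2 and 17.9 CPM with vehicle and 34.3, 24.8, 18.1 and 15.6 CPM with dipyridamole. Atp2a3 fell by 3.05 ± 0.31 on the log2 scale (adjusted p = 3.296e-06). The main SERCA gene of brain, Atp2a2, fell by only 0.86 ± 0.21 (adjusted p = 0.01549).

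Of the 9 genes, 4 have entries in the RefSeq promoter table used here (GRCm38.p6, 250 bases before to 50 after a start site), namely Itpka, Ryr1, Atp2a3 and Atp2b2. The promoters of Itpka, Ryr1 and Atp2a3 are shown because these genes were much lower together, and that of Atp2b2 because it was only slightly lower. Each was searched on both strands for AGGTCA, the nuclear receptor half-site bound among others by Rora, a regulator of Purkinje cell genes, for the cyclic AMP response element TGACGTCA, for CCCNNGGG, the core bound by Ebf factors, and for the TATA box TATAAA. None of these motifs contains another, and matches are in capitals. The Itpka window is chr2:119742087-119742386 on the plus strand, the Ryr1 window chr7:29125102-29125401 on the minus strand, the Atp2a3 window chr11:72960919-72961218 on the plus strand, and the Atp2b2 window, 1 of 3 listed for that gene, chr6:114042031-114042330 on the minus strand.
Itpka: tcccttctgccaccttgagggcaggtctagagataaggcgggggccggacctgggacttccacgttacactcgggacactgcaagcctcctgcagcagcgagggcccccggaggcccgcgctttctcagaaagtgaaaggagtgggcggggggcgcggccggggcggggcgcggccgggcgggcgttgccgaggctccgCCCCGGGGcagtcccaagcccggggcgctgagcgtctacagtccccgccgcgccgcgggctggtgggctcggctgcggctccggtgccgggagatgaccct
Ryr1: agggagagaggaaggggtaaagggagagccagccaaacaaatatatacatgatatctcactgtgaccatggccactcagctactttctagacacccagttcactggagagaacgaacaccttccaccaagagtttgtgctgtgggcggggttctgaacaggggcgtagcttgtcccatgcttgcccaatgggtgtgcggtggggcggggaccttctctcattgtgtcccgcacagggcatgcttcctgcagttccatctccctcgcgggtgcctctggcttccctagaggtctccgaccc
Atp2a3: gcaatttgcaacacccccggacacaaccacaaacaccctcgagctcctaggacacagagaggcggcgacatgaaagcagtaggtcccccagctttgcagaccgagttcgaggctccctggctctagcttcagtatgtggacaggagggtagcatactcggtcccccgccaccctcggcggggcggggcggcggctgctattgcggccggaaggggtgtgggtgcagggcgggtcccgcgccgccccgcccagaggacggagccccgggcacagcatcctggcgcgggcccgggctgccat
Atp2b2: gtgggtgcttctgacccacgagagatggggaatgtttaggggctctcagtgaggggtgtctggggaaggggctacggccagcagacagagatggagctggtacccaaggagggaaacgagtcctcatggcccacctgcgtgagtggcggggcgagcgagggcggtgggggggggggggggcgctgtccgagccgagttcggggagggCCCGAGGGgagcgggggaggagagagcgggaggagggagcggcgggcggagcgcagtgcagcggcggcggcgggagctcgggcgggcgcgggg
A CCCNNGGG match began 51 bases before the Itpka start and 43 bases before this Atp2b2 start, and 13.7% of the 32851 promoters in the table hold one. The letters AGGTCA (in 16.3% of promoters), TGACGTCA (1.79%) and TATAAA (13.6%) do not occur in these 4 windows. The strongly lowered genes therefore shared none of the 4 motifs in these windows. They shared a GC content above the table's median of 52.7%, at 73.7% for Itpka, 56.7% for Ryr1 and 68.3% for Atp2a3, as did the window of Atp2b2 at 72.7%.

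The pump Atp2b2 and the channel Cacna1a stood apart from the other genes. Atp2b2 (ENSMUSG00000030302.18; chromosome 6, 113720792 to 114019574, minus strand) codes for PMCA2, which exports calcium across the plasma membrane and is made by granule cells and hair cells as well. It was at 1089, 1082, 1162 and 1081 CPM in Npc1+/+ cerebella, 654, 698, 740 and 701 CPM in Npc1-/- vehicle cerebella and 543, 754, 737 and 710 CPM in dipyridamole cerebella. The groups did not overlap, yet the log2 fold change was only -0.54 ± 0.16 (adjusted p = 0.03942). The call was fragile: it held in 9 of 22 alternative analyses, whose adjusted p ran from 0.001315 to 0.2458. It was lost when any 1 of 10 libraries was left out, namely each Npc1+/+ replicate, Npc1-/- vehicle replicates 1, 3 and 4 and dipyridamole replicates 2, 3 and 4, although its log2 fold change stayed between -0.65 and -0.45 in all 22.

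Cacna1a (ENSMUSG00000034656.19; chromosome 8, 85065268 to 85366875, plus strand) codes for the pore of the P/Q-type channel, which carries most of the calcium current of Purkinje cells and also serves transmitter release at many synapses. Npc1+/+ cerebella held 361, 301, 374 and 279 CPM, Npc1-/- vehicle cerebella 279, 236, 243 and 221 CPM, and dipyridamole cerebella 203, 248, 254 and 233 CPM. The Npc1+/+ and vehicle ranges touched at 279 CPM. The log2 fold change of -0.36 ± 0.17 had a 95% interval from -0.73 to 0.00 and did not pass (adjusted p = 0.2145). It passed in 1 of 22 alternatives, the fit without the sex covariate.

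Cacna1g (ENSMUSG00000020866.18; chromosome 11, 94299217 to 94365024, minus strand) codes for the T-type channel Cav3.1, which opens near the resting potential. Levels were 166, 200, 143 and 213 CPM in Npc1+/+, 34.1, 51.4, 60.5 and 49.7 CPM in Npc1-/- vehicle and 68.9, 59.0, 50.4 and 56.7 CPM in Npc1-/- dipyridamole cerebella. It lay between both extremes, at a log2 fold change of -1.84 ± 0.23 (adjusted p = 3.257e-05). The difference between the 2 channel genes was not itself tested.

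Among the 4 Npc1-/- vehicle cerebella, replicate 3, the only female, was the highest for 6 of the 9 genes and for the summed Purkinje cell markers (1045 CPM against 732 to 857 CPM). In the dipyridamole group the order of the marker sums was the reverse. The males, replicates 1 and 2, had marker sums of 1082 and 985 CPM and the females, replicates 3 and 4, 917 and 893 CPM. A male was the highest of that group for 8 of the 9 genes, but a male was also the lowest for Itpr1, Ryr1, Atp2b2 and Cacna1a. Without vehicle replicate 3 the number of genes called in the whole table dropped from 1286 to 474, while 7 of the 9 genes here remained lower, Atp2b2 being the one lost.

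No effect of dipyridamole on the 9 genes was detected. In Npc1-/- cerebella given dipyridamole none of the 9 genes differed from vehicle at an adjusted p under 0.05 with edgeR, nor at an unadjusted p under 0.05, and DESeq2 and limma-voom called none either. Over all 12921 genes edgeR called 0, or 0%, with 300, or 2.32%, at an unadjusted p under 0.05. DESeq2 and limma-voom also called 0, and edgeR without the filter on low counts called 13. The log2 fold changes ran from -0.28 for Itpka to 0.25 for Cacna1g. For Calb1 the difference was -0.02 ± 0.18 with a 95% interval from -0.39 to 0.35, for Car8 it was 0.09 with an interval from -0.32 to 0.51, and for Itpr1 -0.02 with an interval from -0.41 to 0.38. These values moved with the mice included. Without vehicle replicate 3 they were 0.37 for Calb1, 0.53 for Car8 and 0.21 for Itpr1, and in female mice only, where vehicle replicate 3 is the 1 vehicle mouse, -0.65, -0.62 and -0.40. Over the 22 alternatives none of the 3 passed. Ryr1 had the widest interval, from -0.83 to 0.87, with few counts behind it. For Cacna1g the interval ran from -0.13 to 0.63, and for Itpka from -0.69 to 0.12.

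Set against the same Npc1+/+ cerebella, the dipyridamole group was also lower in 8 of 9 genes, where 6.29% of all genes passed as lower. This comparison shares its control mice with the vehicle comparison. The log2 fold changes were -3.46 ± 0.22 for Calb1, -3.98 ± 0.25 for Car8, -2.66 ± 0.23 for Itpr1, -3.78 ± 0.22 for Itpka, -3.12 ± 0.35 for Ryr1, -2.97 ± 0.30 for Atp2a3, -1.58 ± 0.21 for Cacna1g and -0.61 ± 0.14 for Atp2b2. Cacna1a, at -0.45 ± 0.15, again fell short (adjusted p = 0.05847), although here its 4 libraries lay below every Npc1+/+ library, as did those of 12.8% of all genes. In this comparison Atp2b2 passed in 21 of 22 alternatives, the exception being the analysis without dipyridamole replicate 4 (adjusted p = 0.05339), and Cacna1a passed in 4 of 22, including those without Npc1+/+ replicate 4 and without vehicle replicate 2.

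**Figure D2:**
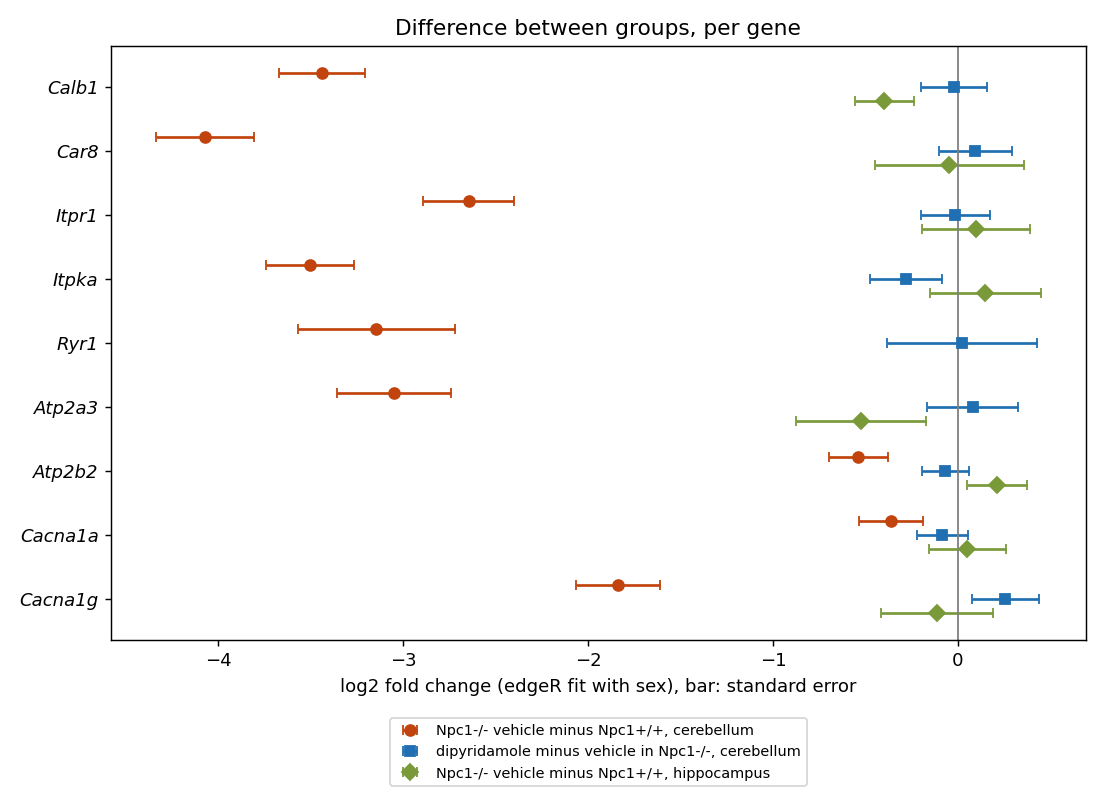
Log2 fold change with its standard error for each of the 9 genes in 3 comparisons: Npc1-/- vehicle minus Npc1+/+ vehicle in cerebellum (circles), dipyridamole minus vehicle in Npc1-/- cerebellum (squares) and Npc1-/- vehicle minus Npc1+/+ vehicle in hippocampus (diamonds; Ryr1 was not tested there). The circles spread from -4.07 for Car8 to -0.36 for Cacna1a, while the squares lie between -0.28 and 0.25.

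Around these genes, 93 further genes of calcium handling in 5 lists were examined, of which 88 had enough counts to be tested in cerebellum. In Npc1-/- vehicle cerebella 21 of the 88 were lower and 2 higher, beside 4.04% and 5.91% of all genes, and their median log2 fold change was -0.26. The receptor and IP3 arm held the larger share: 9 of its 15 genes were lower and none higher, with a median of -0.94. Among its largest changes were Rgs8, a brake on G protein signalling, at -2.39 ± 0.20, and Homer3, a postsynaptic scaffold that binds the IP3 receptor, at -2.32 ± 0.20. Rgs8 is also in the list of Purkinje cell markers described below, so the lists share this gene.

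Of the 24 tested genes of stores and store entry 3 were lower and 1 higher, with a median of -0.40. Casq2, a calcium-binding protein inside the store, was at -2.39 ± 0.38, and Atp2a2 at -0.86 ± 0.21. Itpkb was higher, at 1.49 ± 0.18 (adjusted p = 2.277e-05). It codes for the sister kinase of Itpka, found outside neurons as well, so the 2 IP3 kinases changed in opposite directions. Microglial markers changed with it: 7 of 7 tested were higher, with a median of 3.58, and their sum went from between 49.8 and 54.6 CPM to between 638 and 778 CPM. The part of microglia in the Itpkb result was not tested.

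Among the other voltage-gated channel subunits 3 of 15 were lower and none higher, with a median of -0.02: Cacnb2 at -0.92 ± 0.22, Cacna2d2, an accessory subunit of the P/Q-type channel in Purkinje cells, at -0.82 ± 0.17, and Cacnb4 at -0.55 ± 0.15. Of 21 buffers, sensors and calcium kinases 6 were lower and 1 higher, with a median of -0.23. Parvalbumin (Pvalb), a buffer of Purkinje cells and interneurons, was at -1.19 ± 0.25, and S100a1 was higher at 0.79 ± 0.18. Of 13 plasma membrane pumps and exchangers other than Atp2b2 none passed, with 1 at an unadjusted p under 0.05, beside 23.9% of all genes, and a median of -0.0018. In the dipyridamole comparison in cerebellum none of the 88 genes passed and 1 was at an unadjusted p under 0.05.

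**Figure D3:**
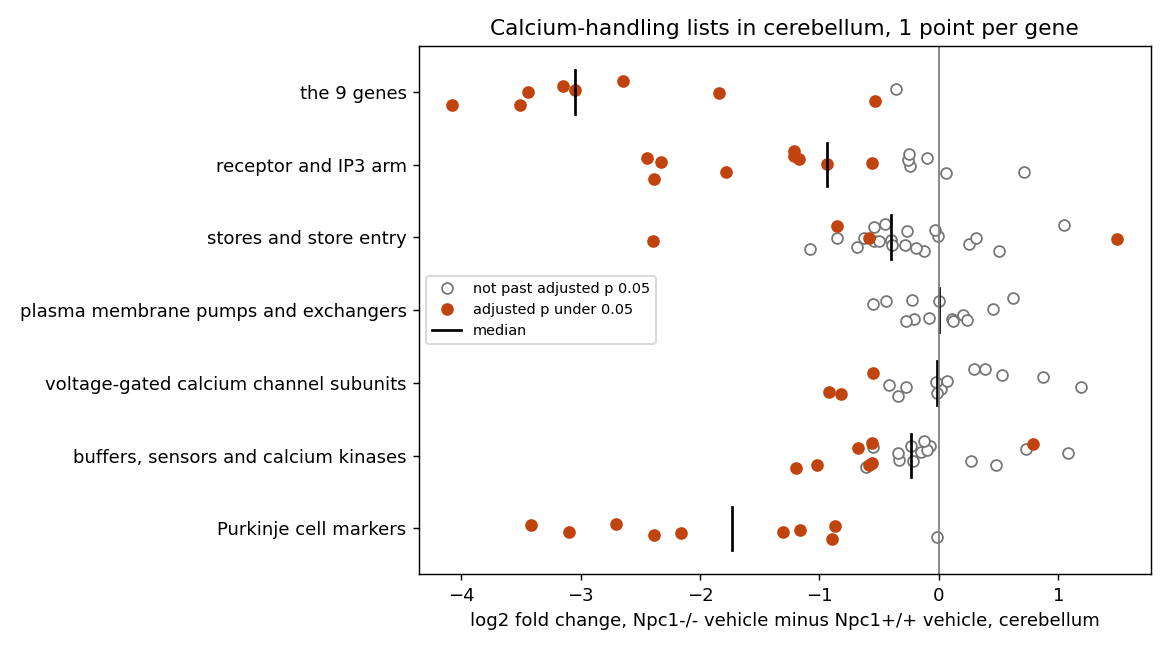
Log2 fold change of Npc1-/- vehicle minus Npc1+/+ vehicle in cerebellum, 1 point per tested gene (filled where the adjusted p was under 0.05) and a black line at the median, for the 9 genes, 5 lists of other calcium-handling genes and the Purkinje cell markers. The medians are -3.05 for the 9 genes, -0.94 for the receptor and IP3 arm and between -0.40 and -0.0018 for the other 4 calcium lists.

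Markers of the cerebellar cell types were measured in the same libraries. Of 10 Purkinje cell markers 9 were lower, with a median of -1.73. Ppp1r17 went from 138 ± 23.1 to 9.72 ± 4.74 CPM and Pcp2 from 1480 ± 292 to 179 ± 57.1 CPM (SD, n = 4), whereas Lhx5, the marker that did not pass, was at 2.41 ± 0.60 and 2.83 ± 0.65 CPM. Of the molecular layer interneuron markers none of 6 passed, of the granule cell markers 1 of 4 tested was lower (Gabra6, -0.89 ± 0.22), and of the Bergmann glia markers 4 of 5 were lower. The sum of the 6 Bergmann glia markers went from between 895 and 1037 CPM to between 425 and 494 CPM. The part of Bergmann glia and microglia in the results for the 9 genes was not tested.

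The 9 genes were therefore also expressed relative to the sum of the 10 Purkinje cell markers, which dropped to 24.7% of the Npc1+/+ mean in vehicle and 28.0% in dipyridamole cerebella. Relative to that sum, with Npc1+/+ set to 1, Car8 was at 0.21, Calb1 at 0.31, Itpka at 0.40, Ryr1 at 0.45, Atp2a3 at 0.48 and Itpr1 at 0.54 in the vehicle group, and for each of them every Npc1-/- ratio lay below every Npc1+/+ ratio. Cacna1g was at 1.10, with overlapping ratios. Atp2b2 at 2.59 and Cacna1a at 3.07 lay above every Npc1+/+ ratio. These 2 genes are not limited to Purkinje cells: in Npc1+/+ mice their hippocampal means were 0.62 and 0.43 of the cerebellar means. Hippocampal expression was not particular to them. The same measure was 3.26 for Itpka, 0.37 for Cacna1g, 0.20 for Itpr1, 0.18 for Calb1, 0.05 for Atp2a3 and 0.006 for Car8. The part of other cells in the ratios to the markers was not tested. The dipyridamole group gave 0.21 for Car8, 0.29 for Calb1, 0.27 for Itpka, 0.37 for Ryr1, 0.46 for Atp2a3, 0.50 for Itpr1, 1.16 for Cacna1g, 2.24 for Atp2b2 and 2.56 for Cacna1a.

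These ratios depended on which markers stood for the cell. Some of the 10 are made elsewhere too, since their sum was still between 266 and 322 CPM in every hippocampus, where Dner alone had 31.4% of its cerebellar level. With only the 4 markers whose hippocampal mean was under 1% of the cerebellar mean (Pcp2, Ppp1r17, Lhx1 and Skor2), a choice made after seeing the data, the denominator dropped to 12.4% in vehicle and 15.6% in dipyridamole cerebella. Pcp2 made up 89.2% of that sum in Npc1+/+ cerebella. The 4 markers did not drop alike, since in the vehicle group Pcp2 was at 12.1% of its Npc1+/+ mean, Ppp1r17 at 7.07%, Skor2 at 13.2% and Lhx1 at 50.0%. Against this sum, Itpr1 was at 1.09, Atp2a3 at 0.98, Ryr1 at 0.88 and Itpka at 0.79 in the vehicle group, all with overlapping ranges, while Calb1 at 0.63 and Car8 at 0.43 stayed below every Npc1+/+ ratio. Cacna1g at 2.20, Atp2b2 at 5.32 and Cacna1a at 6.36 lay above every Npc1+/+ ratio. In the dipyridamole group Itpka at 0.49 and Car8 at 0.39 lay below every Npc1+/+ ratio, whereas Calb1 at 0.55, Ryr1 at 0.69, Atp2a3 at 0.83 and Itpr1 at 0.95 overlapped.

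Because 1 gene carried that sum, the ratios were also taken to Pcp2 alone and to the sum of Ppp1r17, Lhx1 and Skor2, both chosen after seeing the data. Relative to the other 3 markers without Pcp2, the vehicle group had Itpr1 at 0.94, Atp2a3 at 0.81 and Ryr1 at 0.72, with overlapping ranges, and Itpka at 0.66, Calb1 at 0.53 and Car8 at 0.36, each below every Npc1+/+ ratio. Relative to Pcp2 alone, only Car8, at 0.44, lay below every Npc1+/+ ratio in that group, and Calb1, at 0.64, overlapped. The geometric mean of all 10 Purkinje cell markers was also used as a denominator. Against it, the vehicle group had Itpr1 at 0.45, Atp2a3 at 0.40, Ryr1 at 0.37 and Itpka at 0.33. Calb1 was at 0.26 and Car8 at 0.17. For these genes every ratio lay below every Npc1+/+ ratio, in the dipyridamole group as well. Cacna1g, at 0.90 with vehicle, overlapped, and Atp2b2 at 2.14 and Cacna1a at 2.53 lay above. Under every denominator used here, and in both Npc1-/- groups, Car8 had the lowest ratio, and Cacna1a and Atp2b2 the highest.

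**Figure D4:**
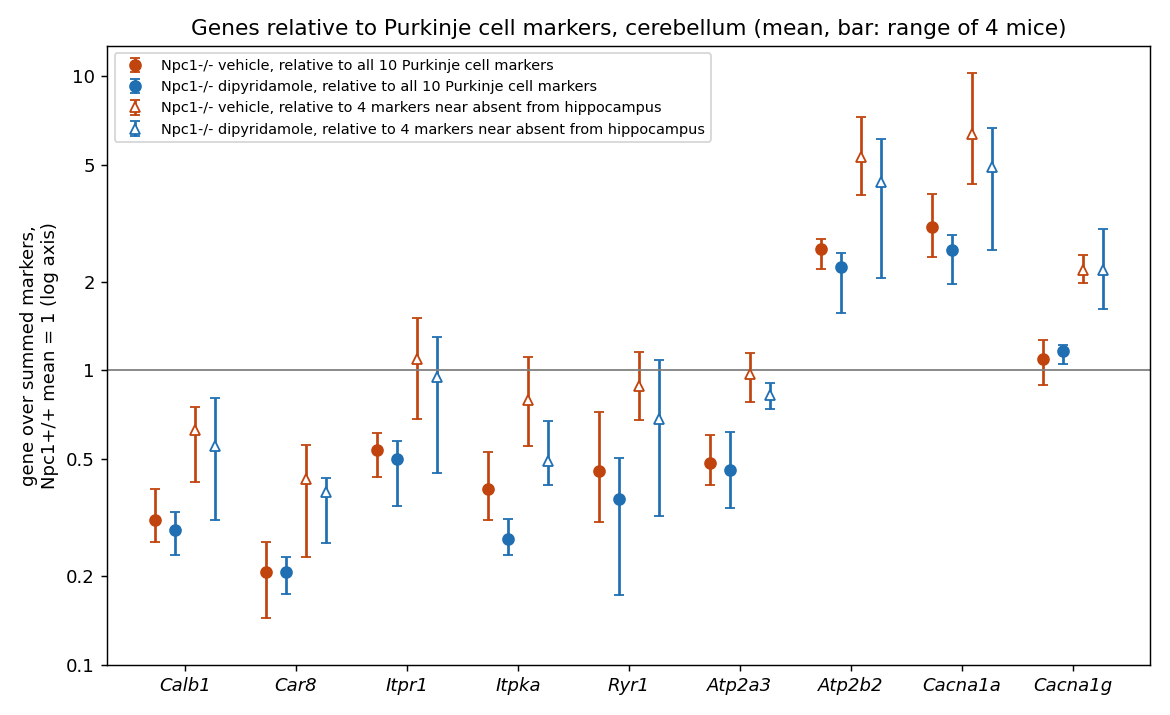
Each gene divided by summed Purkinje cell markers in the same cerebellum, on a log axis with the Npc1+/+ mean set to 1; points are means and bars the range of 4 mice, for all 10 markers (filled circles) and for the 4 markers near absent from hippocampus (open triangles). Car8 has the lowest ratio with either set, and Itpr1, Ryr1 and Atp2a3 move from between 0.45 and 0.54 with the first set to between 0.88 and 1.09 with the second, mostly Pcp2, in the vehicle group.

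The hippocampus of the same mice has no Purkinje cells and served as a second tissue. In Npc1+/+ mice 8 of the 9 genes were lower in hippocampus than in cerebellum, where 21.3% of all genes passed as lower, and Itpka was higher, as were 21.8% of genes. The cerebellar excess was 154-fold for Car8, 21.6-fold for Atp2a3, 5.70-fold for Calb1, 5.03-fold for Itpr1, 2.68-fold for Cacna1g, 2.31-fold for Cacna1a and 1.61-fold for Atp2b2, while Itpka was 3.26-fold higher in hippocampus. For Ryr1 the 4 cerebella held 355 counts and the 4 hippocampi 7, 0, 1 and 4 counts, so no fold is given. Each of these orders was seen in 4 of 4 mice.

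No gene of the 9 passed between Npc1-/- vehicle and Npc1+/+ hippocampi, where 1.62% of 12740 genes passed with edgeR in either direction. Ryr1 was left out of the test for low counts, with 12, 3 and 12 counts summed over the Npc1+/+, vehicle and dipyridamole hippocampi, so it is not compared here. Of the other 8 genes 1 had an unadjusted p under 0.05, as did 12.3% of all genes, and DESeq2 and limma-voom called none. That gene was Calb1, which dentate granule cells also make. Calb1 stood at 104, 116, 130 and 118 CPM in Npc1+/+, at 101, 102, 88.0 and 93.4 CPM in Npc1-/- vehicle and at 86.3, 102, 77.6 and 92.5 CPM in Npc1-/- dipyridamole hippocampi. The ranges came close without overlapping, at a log2 fold change of -0.40 ± 0.16 for vehicle (adjusted p = 0.3193) and -0.47 ± 0.14 for dipyridamole against Npc1+/+ (adjusted p = 0.1039). Of all genes, 5.38% lay below every Npc1+/+ hippocampus in the vehicle group and 5.54% in the dipyridamole group. Other markers differed beside Calb1. The 4 tested dentate granule cell markers were all below 0 for vehicle, with a median of -0.52, though none passed, and the sum of the 5 ran from 209 to 232 CPM in Npc1+/+ and from 180 to 229 CPM in vehicle hippocampi. Of the myelin markers 6 of 6 were lower, with a median of -2.76, and their sum went from between 4385 and 5552 CPM to between 1081 and 1601 CPM. The part of either cell type in the Calb1 values was not tested.

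Itpka and Itpr1 showed no such order. Itpka in hippocampus was at 312, 373, 393 and 537 CPM in Npc1+/+, 665, 310, 436 and 465 CPM in vehicle and 394, 508, 544 and 327 CPM in dipyridamole mice. Itpr1 was at 328, 490, 393 and 526 CPM, 588, 306, 406 and 509 CPM, and 312, 468, 392 and 522 CPM in the same order of groups. The ranges of all 3 groups overlapped for both genes. The log2 fold change of Npc1-/- vehicle was 0.15 with a 95% interval from -0.50 to 0.80 for Itpka and 0.10 with an interval from -0.53 to 0.72 for Itpr1.

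Car8 was near the bottom of detection in hippocampus, at 4.06, 4.45, 6.17 and 4.07 CPM in Npc1+/+, 2.22, 3.02, 4.31 and 2.00 CPM in vehicle and 4.68, 2.67, 4.51 and 10.7 CPM in dipyridamole mice. The value of 10.7 CPM came from dipyridamole replicate 4, the library low in dentate granule cell markers. Dipyridamole against vehicle gave a log2 fold change of 0.71 ± 0.34 for Car8 (adjusted p = 0.9999), and the lowest value over its alternatives, 0.45, was the one without that library. The part of dissection in this value was not tested. The remaining genes ranged from 42.9 to 87.3 CPM for Cacna1g, 106 to 172 CPM for Cacna1a, 566 to 987 CPM for Atp2b2 and 4.93 to 13.0 CPM for Atp2a3 over the 12 hippocampi, with overlapping groups in every case.

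Between dipyridamole and vehicle hippocampi 0 of 8 genes passed with edgeR, with 0 at an unadjusted p under 0.05, and 0 with DESeq2 or limma-voom. Of all genes 0% passed, with 93, or 0.730%, at an unadjusted p under 0.05. Dipyridamole against Npc1+/+ hippocampi gave 0 of 8, where 2.68% of genes passed; 2 of the 8 had an unadjusted p under 0.05, as did 16.5% of genes, namely Calb1 and Atp2b2 (0.40 ± 0.14, adjusted p = 0.1795). DESeq2 called 1 of these, Calb1 (adjusted p = 0.02714). Of the 88 other calcium-handling genes tested none passed in the 3 hippocampal comparisons, with 3 at an unadjusted p under 0.05 for vehicle against Npc1+/+, 11 for dipyridamole against Npc1+/+ and 0 for dipyridamole against vehicle, beside the 12.3%, 16.5% and 0.730% of all genes.

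**Figure D5:**
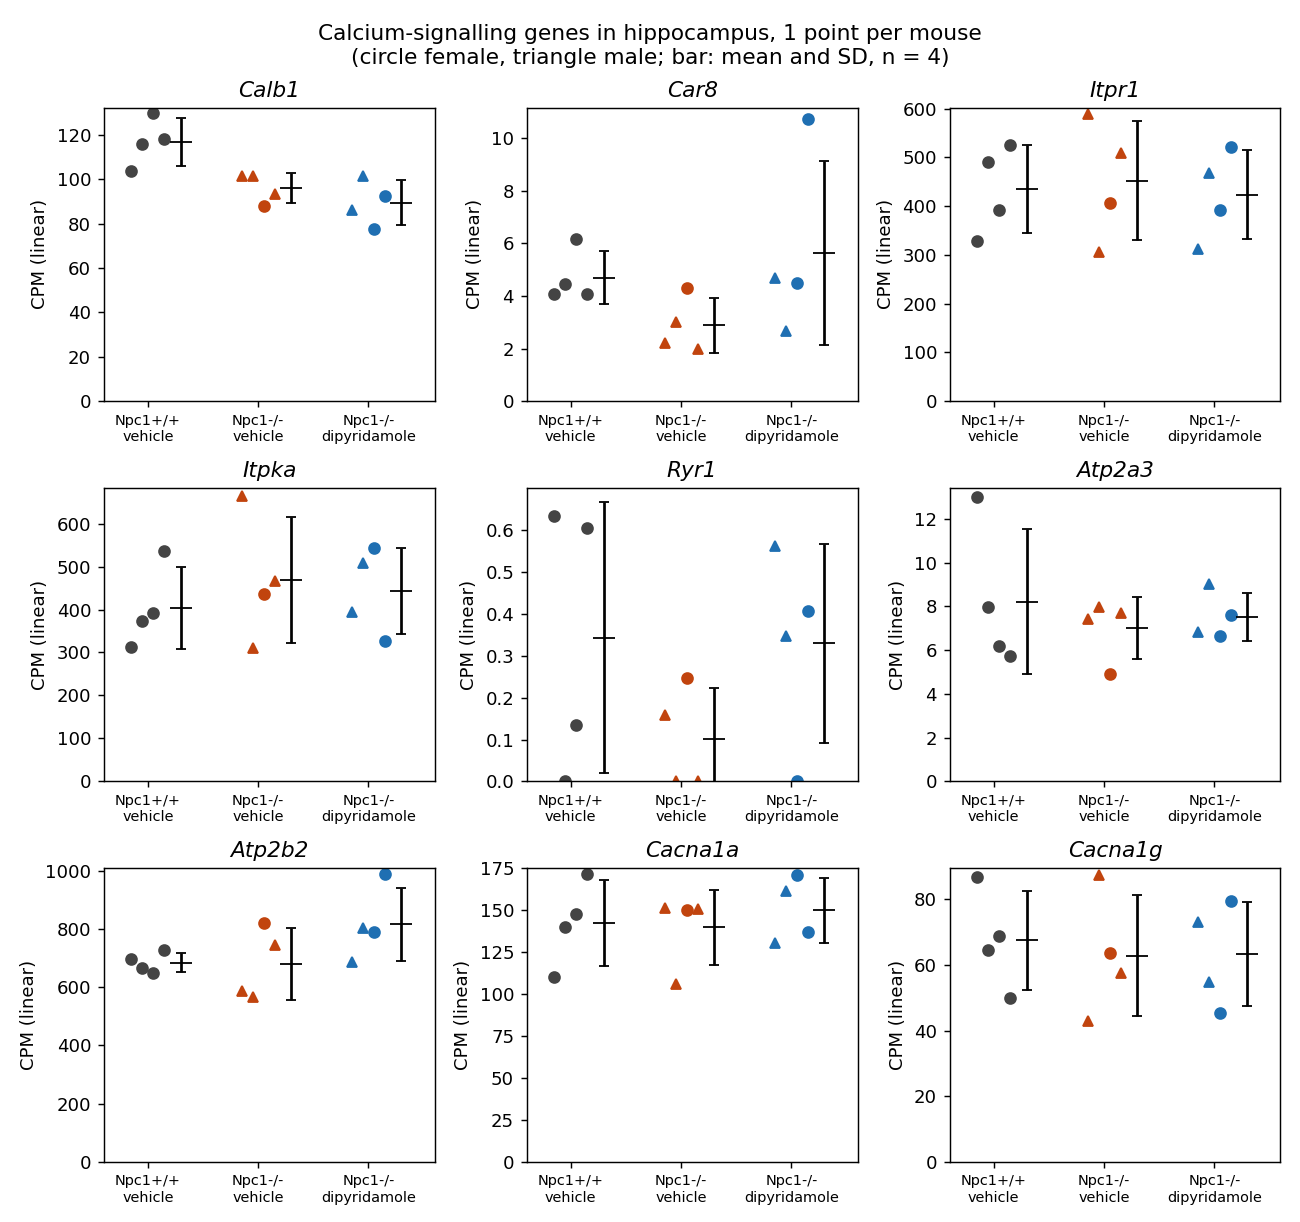
CPM on a linear axis for each of the 9 genes in the 12 hippocampi, 1 panel per gene with its own axis, 1 point per mouse (circles female, triangles male) and the mean with SD of 4 mice. The 3 groups overlap in 8 panels; the Npc1+/+ points of Calb1, from 104 to 130 CPM, lie above the Npc1-/- points. The single high Car8 point, 10.7 CPM, is dipyridamole replicate 4.

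The difference between the tissues was tested directly, in a fit that kept each mouse as a block. For 6 of the 9 genes the log2 fold change of Npc1-/- vehicle against Npc1+/+ mice was lower in cerebellum than in hippocampus. The difference, taken as the hippocampal minus the cerebellar log2 fold change, was 4.03 ± 0.46 for Car8, 3.68 ± 0.41 for Itpka, 3.10 ± 0.25 for Calb1, 2.74 ± 0.36 for Itpr1, 2.68 ± 0.49 for Atp2a3 and 1.72 ± 0.32 for Cacna1g. Of 13436 genes, 0.610% passed with a difference above 0. Cacna1g lost its call without vehicle replicate 3 (adjusted p = 0.1075), and the number of genes called in the whole table then went from 155 to 27. Atp2b2 at 0.75 ± 0.20 (adjusted p = 0.1015) and Cacna1a at 0.43 ± 0.26 did not pass. Ryr1, at 1.57 ± 1.64, could not be judged with so few hippocampal counts.

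The order of the tissues changed for some of the genes. Calb1, 5.70-fold higher in cerebellum in Npc1+/+ mice, was higher in hippocampus in 4 of 4 vehicle and 4 of 4 dipyridamole Npc1-/- mice, by 1.84-fold and 1.67-fold. Itpr1 was higher in hippocampus in 3 of 4 vehicle and 4 of 4 dipyridamole mice, by 1.53-fold and 1.39-fold. Cacna1g was higher in cerebellum in 4 of 4 Npc1+/+, 0 of 4 vehicle and 2 of 4 dipyridamole mice. For Atp2b2 this was 4 of 4, 2 of 4 and 0 of 4 in the same order of groups. For Itpka the hippocampal excess of 3.26-fold in Npc1+/+ mice widened to 39.3-fold with vehicle and 47.2-fold with dipyridamole. Car8 remained higher in cerebellum in every Npc1-/- mouse, by 13.0-fold with vehicle and 7.43-fold with dipyridamole, where hippocampal replicate 4 held the high Car8 value. Atp2a3 and Cacna1a did so too, by 3.08-fold and 1.75-fold with vehicle and by 3.08-fold and 1.57-fold with dipyridamole. Ryr1 was also higher in cerebellum in every Npc1-/- mouse, on 24 counts against 3 with vehicle and 34 against 12 with dipyridamole, too few for a fold.

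Over the 24 libraries the genes whose log2(CPM + 1) most resembled the averaged profile of the 9, among genes with a mean of at least 5 CPM, were Icmt (r = 0.96), Fgf7 (r = 0.94), Car7 (r = 0.93), Kitl (r = 0.92) and Tuba8 (r = 0.92). These Pearson correlations are descriptions over libraries that share tissue, genotype and mouse. Within the 9 genes, Itpr1 followed the averaged profile most closely (r = 0.94) and Itpka least (r = 0.04). Itpka was the only one of the 9 that was higher in hippocampus in Npc1+/+ mice. Each of the 9 genes is itself part of that profile, which raises its r.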

How the data were processed

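Gene counts were deposited by the authors as 1 raw count table per library and were not normalized. Per the submitters' processing notes the steps involved FastQC 0.11.9, Trimmomatic 0.39, STAR 2.7.9a and featureCounts 2.0.3 on GRCm39, and per the file headers the counts used the GENCODE M34 annotation without strand. Counting without strand cannot separate overlapping genes. Genes overlapping a member held at most 9 counts over all libraries, which does not show whether reads on shared exons went uncounted. Exons of other genes overlapped those of Itpr1, Ryr1 and Cacna1a. Per the labels' protocols the libraries came from an Ion AmpliSeq Transcriptome Mouse panel read on an Ion S5, so counts of a gene do not scale with its length. Symbols were matched for 51884 of 57126 identifiers, and identifiers without one held 0.21% of counts.

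Tests were run in R 4.3.3 with edgeR 4.0.16 (TMM, filterByExpr, robust quasi-likelihood), 1 fit per tissue over its 12 libraries with sex as a covariate, and 1 fit over 24 libraries with mouse as a block, tissue by group and tissue by sex. A fold change from these fits is for equal sex and can differ from a ratio of group means. Standard errors follow from the fold change and its F value, intervals are at 95%, and Benjamini-Hochberg adjustment covered all genes tested, with a threshold of 0.05. Alternatives used DESeq2 1.42.0, limma-voom (limma 3.58.1), other scalings, filters and designs, and leaving out each mouse. The edgeR fits for the genotype comparison in each tissue and for the tissue difference were tested on simulated counts. Those counts had 1 spread for all genes and no differences between mice. The other procedures were not tested in this way. The members and gene lists were chosen with earlier results of these data known. Named beyond the 9 genes are the 3 genes of each list with the largest change among those called in cerebellum, the markers, and the 5 genes most like the averaged profile. Some genes that this rule names are not reported here.

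The 12 mice are separate animals by the labels. Both tissues of a mouse are paired by its number in the labels. The deviations of a mouse's cerebellum and hippocampus from their group means correlated at -0.54 to 0.60, above 0.1 in 9 of 12 mice. Only 2 of the 12 mice had a cerebellum that correlated best with its own hippocampus. The pairing therefore rests on the labels. All 36 pairs of replicates differed by more than counting noise, since chi-square divided by its degrees of freedom lay between 6.99 and 46.2.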

Additional observations from a re-analysis of the deposited data

Results flagged for a closer look

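In 60 groups of 4 libraries (9 genes and the library total in 6 groups), 5 held a highest or lowest library set apart from the other 3 by a gap above Dixon's critical value at 95%, where chance flags about 1 in 20 groups. These were Car8 at 865 CPM in Npc1+/+ cerebellum replicate 3, Ryr1 at 11.1 CPM in Npc1+/+ cerebellum replicate 4, Atp2b2 at 1162 CPM in Npc1+/+ cerebellum replicate 3, Cacna1a at 106 CPM in Npc1-/- vehicle hippocampus replicate 2, and a library total of 6117929 counts in Npc1-/- dipyridamole cerebellum replicate 2. Among the hippocampi, vehicle replicate 2 also had the highest choroid plexus marker sum, 8055 CPM. Its sum of CA1 and CA3 pyramidal cell markers, 170.5 CPM, was the lowest. The part of dissection in its Cacna1a value was not tested.

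The log2 fold change of Npc1-/- vehicle against Npc1+/+ mice was lower in cerebellum than in hippocampus for Calb1, Car8, Itpr1, Itpka, Atp2a3 and Cacna1g. In the test of the hippocampal minus the cerebellar value, the differences were 3.10, 4.03, 2.74, 3.68, 2.68 and 1.72 in that order.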

How the results depend on the processing

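Of the 9 genes, those called lower in Npc1-/- vehicle cerebellum numbered 8, and 7 to 8 without any 1 mouse. They numbered 7 with a replicate block, in female mice only, with only the groups compared or with the stricter filter, which left Ryr1 untested, and 9 without the sex covariate. Over the 8 comparisons, 1470 fold changes of the 9 genes were recomputed: 15 lost a call, 8 gained one and 76, none of them called, changed sign. With TMM within each tissue or library totals only, 0 of 36 values in percent of the Npc1+/+ mean moved by more than 1 SD. The 1 count of these genes that changed by more than 1.5 times was dipyridamole against Npc1+/+ hippocampus, where DESeq2 called 1 (Calb1) and edgeR 0. Replicate numbers pair no mice across groups, and 9 of 24 same-number pairs correlated above 0.1. Counts over the whole table moved more. In vehicle cerebellum against Npc1+/+ 1286 genes became 613 with the replicate block, 421 with only the groups compared, 474 without vehicle replicate 3 and 2249 without the sex covariate. In hippocampus 206 became 55 with the replicate block, 47 with only the groups compared, 51 in female mice, 419 with DESeq2, 490 without the sex covariate and 31 to 238 without any 1 mouse, the lowest without vehicle replicate 3. Dipyridamole against Npc1+/+ went from 1864 to 1171 with the replicate block in cerebellum, and from 342 to 195 with it, 179 in female mice and 689 with DESeq2 in hippocampus. Without any 1 mouse it gave 858 to 2307 and 130 to 428, the lowest in both tissues without dipyridamole replicate 4. The tissue difference went from 155 to 386 without the tissue by sex term, with 27 to 227 without any 1 mouse. Depth limits Ryr1, with 24 counts over the vehicle cerebella, and Car8 in hippocampus, with 11 to 79 counts a library.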
